A study of Homo sapiens with 8 samples.

Results

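AP-1 is the collective name of dimeric transcription factors built from FOS and JUN proteins, and the genes followed here are the 7 that encode them: FOS, FOSB, FOSL1 and FOSL2 of the FOS family and JUN, JUNB and JUND of the JUN family. They were found by taking every probe of the array whose platform annotation carries 1 of these symbols. That gave 7 probes, 1 for each gene, among 47231 probes on the array, and all 7 genes were among the 14189 that passed the filter on dim probes and were tested. RNA was read on Illumina BeadChips, which are single-colour bead arrays, in 4 groups of 2 arrays each. These were SKOV3 cells kept at 46 °C (hyperthermia), SKOV3 cells at 37 °C (control), A2780 cells at 46 °C (hyperthermia) and A2780 cells at 37 °C (control). Both are established lines derived from human ovarian cancer, and no genetic change or drug is named for any group. How long the heat lasted, when the cells were harvested and whether a group's 2 samples were separate cultures is not in the labels, so the p-values measure only the spread between these samples, which may be technical.

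FOS and JUN proteins are basic leucine zipper factors. A FOS protein usually binds DNA paired with a JUN protein, whereas JUN proteins can also pair with each other and with ATF proteins. The dimers recognise short palindromic sites in the control regions of their target genes. FOS, FOSB, JUN and JUNB are textbook immediate early genes, transcribed within minutes of a growth factor or a stress signal without new protein synthesis, and their mRNAs are short-lived. FOSL1 and FOSL2 (also called FRA1 and FRA2) lack the strong activating region of FOS and usually follow later, while JUND is made at a steady level in many cell types.

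The median probe signal of an array ran from 114 to 144, and 37.1% to 39.5% of the probes lay above background on 7 arrays. On A2780 control 2, the brightest array, 43.2% did. All 4 chaperone genes used to check the temperature labels rose at 46 °C, by 2.65 to 7.14 on the log2 scale in SKOV3 and by 2.90 to 7.26 in A2780. The cell labels were harder to check. None of the 5 ovarian lineage markers (PAX8, WT1, MUC16, MSLN and EMX2) was above background on any array of either line. Of 6 epithelial markers, EPCAM and KRT18 were above background on all 4 SKOV3 arrays, while none was on all 4 A2780 arrays, and CDH1, KRT8 and KRT7 were not on any of the 8. Of 5 fibroblast markers (COL1A1, COL1A2, DCN, LUM and PDGFRB), none was above background on every SKOV3 array, while all 5 were on every A2780 array. The lines are therefore named here as they were labelled.

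The sequences just before the transcription start are shown for the 4 immediate early members, because 3 of them moved together with heat and the fourth, JUNB, did not. Each is the 250 bases upstream of the start in RefSeq on GRCh38.p14, read 5′ to 3′ on the gene's own strand, with matches to the motifs listed afterwards in capitals. RefSeq promoters were at hand for 6 of the 7 members.
FOS, chr14:75278578-75278827, plus strand: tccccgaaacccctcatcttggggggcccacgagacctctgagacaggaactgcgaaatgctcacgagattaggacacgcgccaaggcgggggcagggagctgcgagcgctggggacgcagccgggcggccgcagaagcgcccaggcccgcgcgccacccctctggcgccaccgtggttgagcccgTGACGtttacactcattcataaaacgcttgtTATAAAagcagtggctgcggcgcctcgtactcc
FOSB, chr19:45467746-45467995, plus strand: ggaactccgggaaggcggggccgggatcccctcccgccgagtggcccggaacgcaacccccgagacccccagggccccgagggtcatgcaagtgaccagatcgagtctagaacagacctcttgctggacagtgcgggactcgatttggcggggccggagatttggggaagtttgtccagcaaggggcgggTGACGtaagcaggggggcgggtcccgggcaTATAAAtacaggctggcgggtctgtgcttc
JUN, chr1:58784048-58784297, minus strand: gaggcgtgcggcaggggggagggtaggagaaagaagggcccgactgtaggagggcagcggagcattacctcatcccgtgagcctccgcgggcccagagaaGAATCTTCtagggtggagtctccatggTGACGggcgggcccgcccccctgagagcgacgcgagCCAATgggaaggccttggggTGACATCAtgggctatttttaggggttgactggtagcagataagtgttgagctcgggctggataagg
JUNB, chr19:12791236-12791485, plus strand: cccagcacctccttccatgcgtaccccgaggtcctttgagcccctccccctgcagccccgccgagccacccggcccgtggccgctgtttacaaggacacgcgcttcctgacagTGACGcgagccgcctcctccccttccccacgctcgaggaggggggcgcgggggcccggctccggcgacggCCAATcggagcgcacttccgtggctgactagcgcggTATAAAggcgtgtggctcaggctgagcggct

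The motifs searched on both strands were TGACGTCA (the cAMP response element, which holds TGACG on either strand), the shorter core TGACG itself, the classical AP-1 site TGACTCA, the variant TGACATCA (bound by JUN and ATF dimers), CCAAT (bound by NF-Y), TATAAA (the TATA box), the paired heat-shock units GAANNTTC and TTCNNGAA, the CArG box of serum response factor, and GGGCGG, which is not capitalised. Positions count back from the base before the start, which is -1. TGACG was present in all 6 promoters and in 21.2% of the 35114 RefSeq windows of the same length. It lay at -64 to -60 in FOS, -60 to -56 in FOSB, -123 to -119 in JUN and -137 to -133 in JUNB. In FOSL2 it lay at -66 to -62 and, on the other strand, at -201 to -197, and JUND held the full TGACGTCA at -200 to -193, which 1.65% of the windows hold. A separate JUND match to TGACG lay at -86 to -82 on the other strand. A TATAAA stood at -33 in FOS, -30 in FOSB and -31 in JUNB (10.7% of windows), and a CCAAT at -87 in JUN, -67 in JUNB and -74 in JUND (32.0%). The JUN window alone of the 6 held TGACATCA (2.38% of windows), at -67 to -60, and GAANNTTC (5.78%), at -150 to -143. TGACTCA (4.20%), TTCNNGAA (6.62%) and the CArG box (1.16%) had no match in these 6 windows. Bases farther upstream were not searched, so the search cannot tell whether these promoters hold such sites, a CArG box included, beyond the windows. GGGCGG, present in 42.6% of windows, occurred in all 6 but that of JUNB. FOS, FOSB and JUN share TGACG and GGGCGG in this search, and neither motif is limited to them.

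The first comparison asked what heat did to these transcripts in SKOV3. FOS, FOSB and JUN rose strongly at 46 °C, JUNB fell slightly, and FOSL1, FOSL2 and JUND did not pass the test. All values that follow are either the array's signal as deposited, in linear units, or the background-corrected and normalized intensity on the log2 scale, and a gene is said to rise or fall where the limma test adjusted by Benjamini-Hochberg over all 14189 genes gave a p under 0.05. By this rule 3 of the 7 members were higher, against 1.50% of all tested genes, and 1 was lower, against 1.68% (3.18% in either direction).

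FOS, the founding member and the human counterpart of a viral oncogene, gave signals of 4694 and 4589 on the SKOV3 arrays at 46 °C, against 168 and 154 at 37 °C. After normalization these were 12.27 and 12.28, against 6.98 and 6.86 on the log2 scale. The hot arrays stood far above the control arrays, which were only 1.25 and 1.17 times the background signal of their array. The rise was 5.36 ± 0.12 (limma estimate ± SE, n = 2 arrays per group, adjusted p = 2.79e-12), a 41.0-fold change on this scale. In RNA from a whole culture, a change in every cell and a change in some of the cells cannot be told apart. FOSB, a close relative that can also be spliced to a shorter form, had signals of 2562 and 2212 at 46 °C, against 399 and 371 at 37 °C. Its control arrays were well above background, unlike those of FOS. On the log2 scale it reached 11.43 and 11.22 at 46 °C, against 8.58 and 8.53 at 37 °C, a rise of 2.77 ± 0.17 (limma adjusted p = 1.65e-07).

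JUN, the partner that stress-activated JNK kinases phosphorylate, had signals of 2017 and 2128 in SKOV3 at 46 °C, against 264 and 239 at 37 °C. Its log2 values were 11.11 and 11.16, against 7.85 and 7.75, and the groups were far apart. The rise was 3.34 ± 0.13 (limma adjusted p = 6.83e-10), or 10.1-fold. JUNB, an AP-1 member that activates less strongly than JUN and can oppose it, moved the other way. Its signals were 212 and 195 at 46 °C, against 272 and 295 at 37 °C, and its log2 values were 7.51 and 7.28, against 7.92 and 8.13. Both hot arrays lay below both control arrays, and the fall was by 0.63 ± 0.14 (limma adjusted p = 0.0293). That call was lost under 7 of 19 alternative settings (adjusted p from 0.0232 to 0.333 over all 19), among them leaving out SKOV3 control 1 (0.0994), SKOV3 control 2 (0.333) or SKOV3 hyperthermia 2 (0.187). With the replicate number as a block its adjusted p was 0.0676. The call was also lost with median scaling (-0.64, limma adjusted p = 0.0770) and with no between-array normalization (-0.63, 0.226).

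JUND, the member made at a steady level, was bright in SKOV3 throughout. Its log2 values were 12.79 and 12.62 at 46 °C, against 13.06 and 13.13 at 37 °C. The groups did not overlap, but the difference of -0.39 ± 0.15 did not pass the test (limma adjusted p = 0.205). FOSL1, a FOS relative prominent in invasive epithelial tumours, had log2 values of 6.46 and 7.19 at 46 °C, against 6.85 and 7.12 at 37 °C. It was near background throughout and not above it on SKOV3 hyperthermia 1. FOSL2 had 7.10 and 7.12, against 7.37 and 7.22. Their differences were -0.17 ± 0.20 and -0.19 ± 0.12, with limma adjusted p-values of 0.772 and 0.536. In all, 6 of the 7 members had no overlap between the SKOV3 groups, FOSL1 being the exception, and so did 45.5% of all tested genes.

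**Figure D1:**
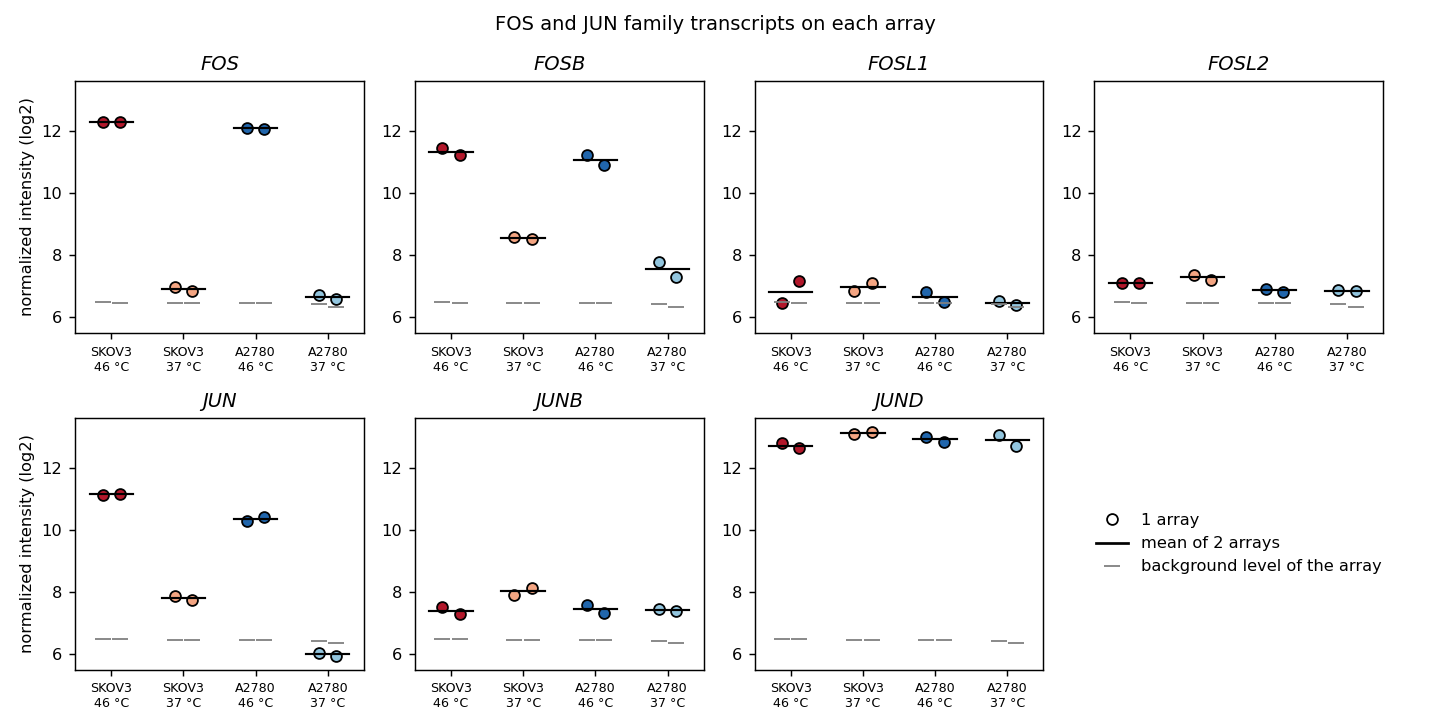
Normalized intensity (log2, y axis) of the 7 FOS and JUN family transcripts on each of the 8 arrays, with groups along the x axis, 1 circle per array, a black bar for the mean of 2 arrays and short grey lines for the background level of each array. FOS, FOSB and JUN are high in both 46 °C groups and low in both 37 °C groups, JUND is bright in all 4, and JUN in A2780 at 37 °C lies below the background lines.

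The second comparison asked the same in A2780. Again FOS, FOSB and JUN rose, and the other 4 members did not pass the test. The count is 3 of 7 members higher, against 2.23% of all tested genes, and 0 lower, against 2.29% (4.52% in either direction). Over all genes the 316 higher and 325 lower calls became 189 and 4395 with median scaling and 128 and 5183 with no between-array normalization; in SKOV3 the 213 and 238 became 150 and 115, and 126 and 66. At an unadjusted p under 0.05 as well, the limma fit found none of the 7 lower in A2780. In SKOV3 JUNB and JUND were lower at that threshold (limma unadjusted p = 0.000737 and 0.0185).

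FOS gave signals of 4990 and 3905 in A2780 at 46 °C, against 172 and 181 at 37 °C, and log2 values of 12.10 and 12.06, against 6.73 and 6.59. The groups were far apart, and again the control arrays were barely above background. The rise was 5.42 ± 0.12 (limma adjusted p = 2.38e-12), or 42.8-fold. FOSB had signals of 2615 and 1707 at 46 °C, against 315 and 304 at 37 °C. Its log2 values were 11.22 and 10.91, against 7.80 and 7.30, so the groups lay well apart and the rise was 3.52 ± 0.17 (limma adjusted p = 9.06e-09).

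JUN had signals of 1316 and 1211 in A2780 at 46 °C, against 125 and 123 at 37 °C, and log2 values of 10.27 and 10.42, against 6.05 and 5.94. Neither array at 37 °C was above background. Measured against the background level of the control arrays, JUN was at least 15.6-fold higher at 46 °C. The fitted difference was 4.35 ± 0.13 (limma adjusted p = 3.33e-11). This bound sets the mean of the hot arrays against the lowest normalized intensity that counts as above background on the control arrays. It and the fold bounds given later hold only on the main normalized scale. Over the alternative settings the fitted JUN change in A2780 was as low as 3.55.

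JUNB, which fell in SKOV3, had log2 values of 7.59 and 7.32 in A2780 at 46 °C, against 7.45 and 7.39 at 37 °C. The groups overlapped, and the difference was 0.03 ± 0.14 (limma adjusted p = 0.944, 95% interval -0.28 to 0.35). JUND had 12.99 and 12.81, against 13.05 and 12.71, a difference of 0.02 ± 0.15. FOSL1 had signals of 168 and 124, against 155 and 158, and FOSL2 had log2 values of 6.91 and 6.83, against 6.87 and 6.85. Both pairs of groups overlapped, and the differences were 0.19 ± 0.20 for FOSL1 and 0.01 ± 0.12 for FOSL2. The limma adjusted p-values of JUND, FOSL1 and FOSL2 were 0.969, 0.687 and 0.983. Without overlap between the A2780 groups were 3 members, against 47.0% of all tested genes. The signs of these near-zero differences depended on scaling. With median scaling or no between-array normalization the median of all genes in A2780 was -0.28 and -0.39. JUNB was then at -0.43 and -0.53 in A2780, the second with an adjusted p of 0.0447. In SKOV3 JUNB was at -0.64 and -0.63 under those settings and did not pass.

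FOS, FOSB and JUN thus passed the test upward in both lines, which 1.01% of all tested genes did. Ranked by the size of the rise among the 10145 genes above background on at least 1 array of both SKOV3 groups, FOS was 5th, JUN 13th and FOSB 19th. Among the 10417 such genes in A2780, FOS was 5th and FOSB 10th, and JUN, not above background at 37 °C, has only a lower bound there and no rank. In the FOS family the order of the 4 group means was the same for FOS and FOSB: SKOV3 at 46 °C was highest (12.28 for FOS and 11.33 for FOSB), then A2780 at 46 °C (12.08 and 11.06), SKOV3 at 37 °C (6.92 and 8.55) and A2780 at 37 °C (6.66 and 7.55). The JUN means kept that order too, at 11.14, 10.34, 7.80 and 5.99, the last of them below background. For FOS both 37 °C means were near background, and the lines did not pass as different there (limma adjusted p = 0.143). Its mean deposited signal at 37 °C ran the other way, at 161 in SKOV3 and 177 in A2780.

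**Figure D2:**
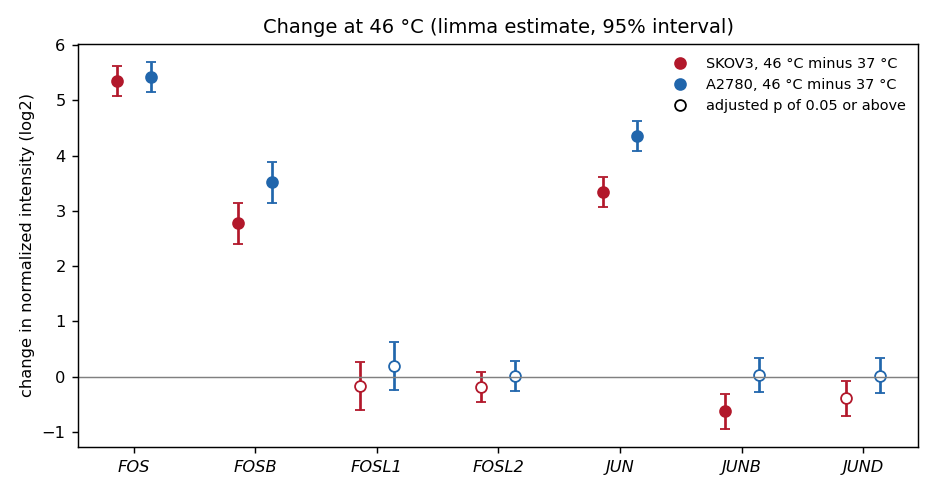
Change of each member at 46 °C against 37 °C (log2, y axis) in SKOV3 (red) and A2780 (blue), as the limma estimate with its 95% interval; open circles have an adjusted p of 0.05 or above. FOS changed by 5.36 and 5.42, JUN by 3.34 and 4.35, FOSB by 2.77 and 3.52, and JUNB by -0.63 in SKOV3 and 0.03 in A2780.

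The third comparison asked whether the lines answered heat differently, by testing the SKOV3 response minus the A2780 response. No member passed, against 0.0987% of all tested genes, 14 in all with limma (4 higher and 10 lower, which became 10 and 2 with median scaling and 7 and 1 with no between-array normalization). At an unadjusted p under 0.05 there were 1212 genes, and FOSB, JUN and JUNB were among them. For FOS the responses differed by -0.06 ± 0.18, with a 95% interval of -0.44 to 0.32. For FOSB the difference was -0.74 ± 0.24 (interval -1.26 to -0.23, limma adjusted p = 0.437). For JUNB it was -0.66 ± 0.20 (interval -1.10 to -0.22, adjusted p = 0.411). Both sizes depended on scaling. With median scaling and with no between-array normalization FOSB was at -0.37 and -0.25, and JUNB at -0.21 and -0.10. The median of all genes was then 0.27 and 0.38. JUN came nearest to the threshold. Its difference was -1.01 ± 0.18 (interval -1.40 to -0.63, limma adjusted p = 0.0575), with A2780 not above background at 37 °C. That difference passed with no filter (0.0401), with array weights (0.0428) and without A2780 control 1 (0.0345), and its adjusted p ran from 0.0345 to 0.409 over all alternatives. The differences of FOSL1, FOSL2 and JUND were -0.36 ± 0.29, -0.20 ± 0.17 and -0.41 ± 0.21, with adjusted p-values of 0.753, 0.781 and 0.603.

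**Figure D3:**
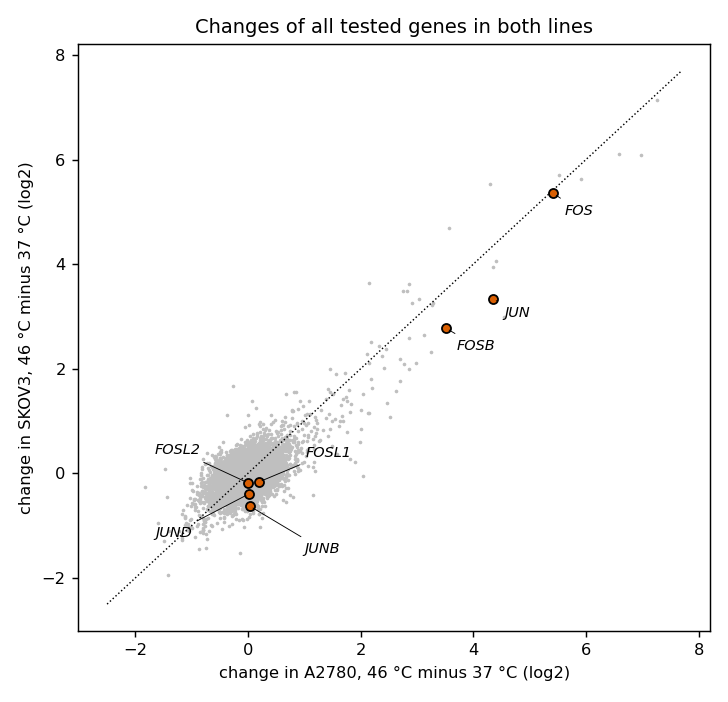
Change at 46 °C in SKOV3 (y axis) against the change in A2780 (x axis), both log2, for all 14189 genes tested (grey points) and the 7 members (orange); the dotted line marks equal change. FOS lies on the line at the upper right, JUN and FOSB lie below it, and the other 4 members sit in the cloud around 0.

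The fourth comparison set the lines against each other at 37 °C. JUN, FOSB, JUNB and FOSL2 were higher in SKOV3, 4 of 7 members against 15.6% of all tested genes. JUN showed the widest gap, with log2 values of 7.85 and 7.75 in SKOV3, against 6.05 and 5.94 in A2780, where it was not above background. On the main normalized scale JUN was at least 2.67-fold higher in SKOV3 (1.81 ± 0.13, limma adjusted p = 9.43e-08). FOSB was higher by 1.01 ± 0.17 (adjusted p = 0.000485), JUNB by 0.60 ± 0.14 (0.00624) and FOSL2 by 0.43 ± 0.12 (0.0170). FOSL2 was only 1.26 to 1.50 times background on these arrays. Its deposited signals, not normalized between arrays, overlapped, at 203 and 183 in SKOV3 against 185 and 221 in A2780. Those of JUNB overlapped too, at 272 and 295 against 257 and 325. Over all genes the 2210 higher and 1953 lower calls became 794 and 4815 with median scaling and 563 and 5470 with no between-array normalization. The calls of FOSB, JUNB and FOSL2 depended on scaling: FOSB was at 0.43 with no between-array normalization (adjusted p = 0.104), and JUNB and FOSL2 also lost theirs with median scaling (0.539 and 0.573). JUNB lost it without SKOV3 control 2 (0.0832), and FOSL2 without SKOV3 control 1 (0.152) or A2780 control 2 (0.0737). FOSL1, FOS and JUND differed by 0.52 ± 0.20, 0.26 ± 0.12 and 0.22 ± 0.15, with adjusted p-values of 0.0728, 0.143 and 0.310. All 7 members had no overlap between the lines at 37 °C, as did 63.1% of all tested genes.

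At 46 °C the gap between the lines passed the test for JUN alone, 1 of 7 members against 12.3% of all tested genes. JUN stood at 11.11 and 11.16 in SKOV3, against 10.27 and 10.42 in A2780 (0.79 ± 0.13, limma adjusted p = 0.000358). The lines were close for FOS (0.20 ± 0.12, adjusted p = 0.305) and FOSB (0.26 ± 0.17, 0.308), so the neighbouring 46 °C means of these genes did not pass as different. FOSL1, FOSL2, JUNB and JUND differed by 0.16 ± 0.20, 0.24 ± 0.12, -0.06 ± 0.14 and -0.19 ± 0.15, with adjusted p-values of 0.197 to 0.825. Without overlap were 5 members, against 58.4% of all tested genes.

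Markers of other cell types moved with several of these comparisons, given here as the summed signal as deposited of each marker list. Between the lines the fibroblast list differed most: its 5 markers summed to 611 to 645 in SKOV3 at 46 °C and 600.5 to 632 in SKOV3 at 37 °C, against 9860 to 12459 in A2780 at 46 °C and 12482 to 14590 in A2780 at 37 °C. The 4 leukocyte markers on the array summed to 1282 to 1353 in SKOV3 at 37 °C, against 2029 to 2476 in A2780 at 37 °C, while at 46 °C the lines overlapped. CD68, a lysosomal protein used as a macrophage marker, was above background on all 8 arrays, and the leukocyte-defining PTPRC and CD3E were not on any. The 6 epithelial markers summed to 968 to 1008 in SKOV3 at 46 °C and 949 to 987 in SKOV3 at 37 °C, against 648 to 779 in A2780 at 46 °C and 787 to 821 in A2780 at 37 °C. With heat in SKOV3 the leukocyte list summed to 1677 to 1734 at 46 °C, against 1282 to 1353 at 37 °C. The 3 erythroid markers on the array, of which HBB was not above background on any array, summed to 490.3 to 499 in SKOV3 at 46 °C, against 387 to 389.6 at 37 °C; both lists overlapped between the A2780 groups. With heat in A2780 the fibroblast and epithelial sums were lower without overlap. At 37 °C the A2780 epithelial sums lay below 880, which is 6 times the lowest background signal of those arrays. All sums are unnormalized, and the median signals in A2780 were 135.6 and 113.7 at 46 °C, against 136.4 and 143.9 at 37 °C. The ovarian lineage and endothelial sums overlapped between the temperatures in both lines. The part of these marker differences in the levels and changes of the members was not tested.

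Over the 8 arrays FOSB and JUN had the profiles most alike among the members that rose. Between FOSB and JUN the root-mean-square difference of the log2 profiles, each centred on its own mean, was 0.51, with a correlation of 0.99. FOS correlated with FOSB at 0.98 and with JUN at 0.95. These correlations are descriptions over 8 arrays in 4 groups, which share the step between temperatures. JUNB and JUND correlated with each other at 0.80, and with FOS at -0.50 and -0.51.

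Outside the family, the genes with profiles most like FOS, by the same root-mean-square measure over the 8 arrays, were RNA5S9, a 5S ribosomal RNA, at 0.15, RN7SK, the 7SK RNA, at 0.29, and RMRP, the RNA of RNase MRP, at 0.44. HSPA7, a heat-inducible HSP70 relative, followed at 0.51 and RNU6ATAC, a minor spliceosome RNA, at 0.61. Of these 5, 4 are small RNAs that are not translated. The nearest to JUN were EGR1, an immediate early zinc finger factor, at 0.34, and PPP1R15A (GADD34), a phosphatase subunit of the stress response, at 0.44. RNU6ATAC (0.73), HSPA1B (0.74) and RIMBP3 (0.76) came next. Another probe of RIMBP3 changed by 0.35 in SKOV3 and 0.38 in A2780 and did not pass, with adjusted p-values of 0.365 and 0.244 among all kept probes.

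**Figure D4:**
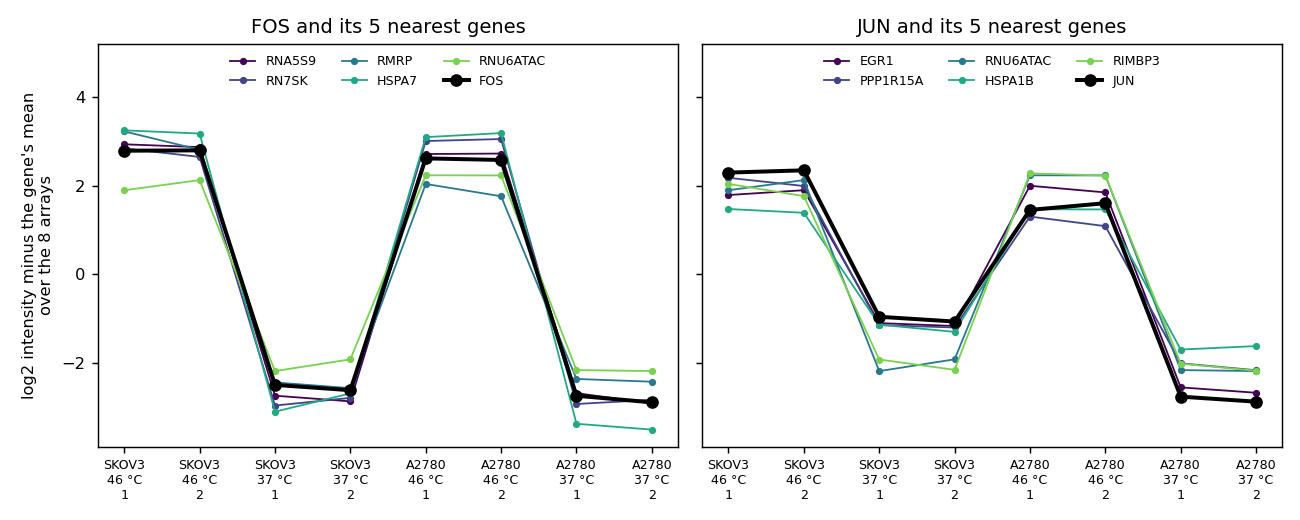
Log2 intensity minus the gene's own mean over the 8 arrays (y axis), for FOS (left, black) and JUN (right, black) and the 5 genes nearest to each, with the arrays along the x axis; lines only join the points of a gene. RNA5S9 follows FOS within a root-mean-square difference of 0.15, and EGR1 follows JUN within 0.34.

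The bZIP proteins that pair with FOS or JUN, or share their sites, held 2 genes that rose in both lines. Of 12 tested, 2 rose and 0 fell in each line, against 1.50% of all tested genes higher and 1.68% lower in SKOV3, and 2.23% and 2.29% in A2780 (1 fell in A2780 with median scaling or no between-array normalization). ATF3, a stress-induced repressor that pairs with JUN, rose by 1.13 ± 0.13 in SKOV3 and 1.11 ± 0.13 in A2780 (adjusted p = 0.00011 and 9.93e-05). MAFF, a small MAF protein, rose by 0.71 ± 0.17 (0.0383) and 1.19 ± 0.17 (0.000842), and its SKOV3 call was lost in 9 of 19 alternatives. A second MAFF probe rose as well, by 0.83 and 1.45, whereas both other ATF3 probes were under the filter and changed by at most 0.12 in SKOV3 and 0.03 in A2780. The list's median change was 0.05 in SKOV3 and 0.10 in A2780, against -0.02 and -0.01 over all genes.

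Upstream stand the kinases and promoter-binding factors that act on FOS and JUN, read here at the RNA level. Of 26 MAP kinase module genes, 0 passed in SKOV3, and 1 fell in A2780: MAPK7, which encodes ERK5, by 0.56 ± 0.14 (limma adjusted p = 0.0370), a call lost in 9 of 19 alternatives. Of all tested genes 3.18% passed in SKOV3 and 4.52% in A2780, so these counts are near the background. In A2780 14 fell with median scaling and 17 with no between-array normalization, settings that shift the median of all genes. The other kept probe of MAPK7 gave -0.27 (adjusted p = 0.327). Of 17 promoter regulators, which include SRF, ELK1, CREB1 and the NF-Y subunits, 0 passed in either line, but 7 and 11 fell in A2780 under those same settings. Their changes ran from -0.48 to 0.22 in SKOV3 and from -0.45 to 0.37 in A2780. These lists concern transcript levels; phosphorylation, by which MAP kinases act, was not measured.

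Among 15 genes for the turnover of FOS and JUN, 1 rose and 0 fell in SKOV3, against 1.50% and 1.68% of all tested genes. In A2780 2 rose and 1 fell, against 2.23% and 2.29%, and 6 fell there with median scaling and 7 with no between-array normalization. ZFP36 (tristetraprolin), which binds AU-rich elements such as that of FOS mRNA and hastens decay, rose by 0.85 ± 0.14 in SKOV3 and 1.45 ± 0.14 in A2780 (limma adjusted p = 0.0029 and 1.78e-05). Its relative ZFP36L1 was at -0.42 ± 0.16 in SKOV3 (0.205) and rose by 0.75 ± 0.16 in A2780 (0.0124), a difference between lines of -1.17 ± 0.22 with an adjusted p of 0.0705. CUL1, the scaffold of the SCF ubiquitin ligase, was at -0.42 ± 0.13 in SKOV3 (0.134) and fell by 0.61 ± 0.13 in A2780 (0.0185). ZFP36L1 lost its A2780 call in 5 of 19 alternatives and CUL1 in 3, and ZFP36 lost its SKOV3 call in 1, without SKOV3 control 1 (0.0616).

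Downstream, of 28 genes widely described as AP-1 targets, 3 rose and 0 fell in SKOV3, against 1.50% and 1.68% of all tested genes. In A2780 2 rose and 1 fell, against 2.23% and 2.29% (7 fell there under either of the other scalings). HBEGF, a ligand of the EGF receptor, rose most, by 1.57 ± 0.13 in SKOV3 and 2.64 ± 0.13 in A2780. Its response was smaller in SKOV3 by a difference of -1.06 ± 0.18 (limma adjusted p = 0.0396), which was lost in 12 of 18 alternatives. DUSP1, a phosphatase that switches MAP kinases off, rose by 1.05 ± 0.12 and 1.54 ± 0.12. MT2A, a metallothionein, rose by 0.76 ± 0.12 in SKOV3 and was at 0.41 ± 0.12 in A2780 (0.085), and CCND1, cyclin D1, was at -0.45 ± 0.13 in SKOV3 (0.092) and fell by 0.58 ± 0.13 in A2780. The SKOV3 call of MT2A was lost in 2 of 19 alternatives, with no between-array normalization (adjusted p = 0.0697) and without SKOV3 control 2 (0.0670). The A2780 call of CCND1 was lost in 3, without A2780 control 2 (0.0913), hyperthermia 1 (0.150) or hyperthermia 2 (0.149), and in SKOV3 CCND1 passed in 2, with the authors' log2 values (0.0465) and with the floor of 16 (0.0489). The medians of the list were -0.07 in SKOV3 and 0.04 in A2780.

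The other immediate early genes were the list with the most calls: 15 of 35 rose and 0 fell in SKOV3, against 1.50% and 1.68% of all tested genes, and 18 rose and 0 fell in A2780, against 2.23% and 2.29%. With median scaling or no between-array normalization 13 rose in each line, and 7 fell in A2780. The median change was 0.35 and 0.63. The largest rises were those of PPP1R15A (3.26 ± 0.13 and 3.29 ± 0.13), EGR1 (2.98 ± 0.13 and 4.54 ± 0.13), SGK1, a kinase gene (at least 3.70-fold in SKOV3, where it was not above background at 37 °C, and 3.24 ± 0.13 in A2780), and GADD45B (2.19 ± 0.13 and 2.70 ± 0.13), in SKOV3 and then A2780. The response of EGR1 was smaller in SKOV3, by a difference of -1.56 ± 0.18 that passed (limma adjusted p = 0.0026) and was lost in 3 of 18 alternatives. ATF3, MAFF, ZFP36, DUSP1 and SRF stand in this list as well as in an earlier one, so the lists are not separate evidence.

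**Figure D5:**
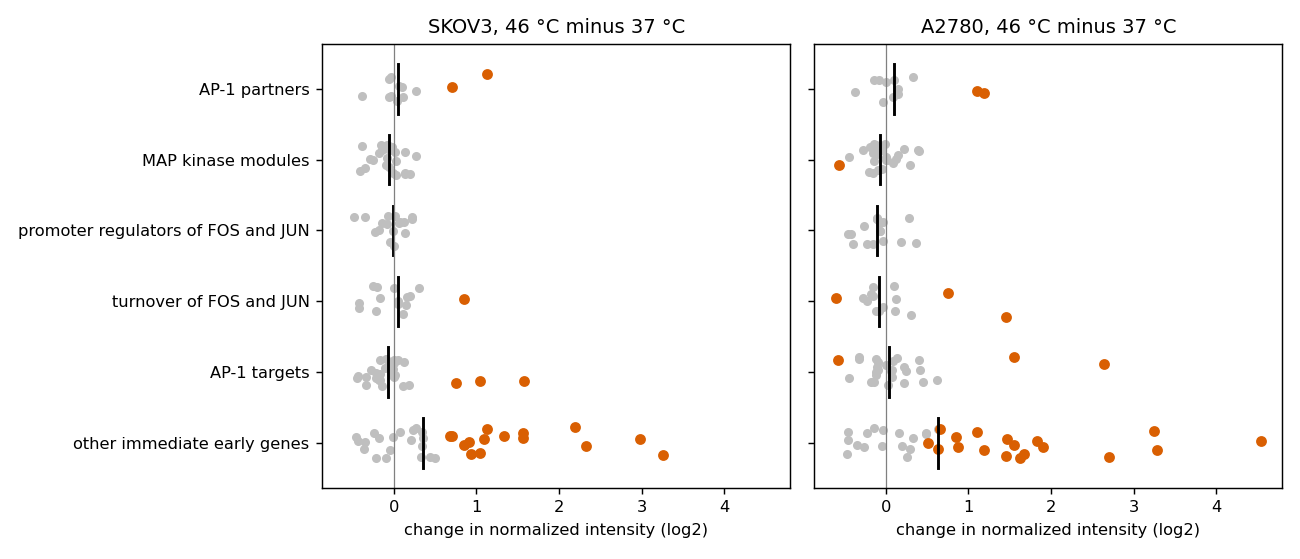
Change at 46 °C against 37 °C (log2, x axis) in SKOV3 (left) and A2780 (right) for every tested gene of the 6 lists around FOS and JUN; orange points have an adjusted p under 0.05, grey points do not, and black bars are list medians. The other immediate early genes have 15 and 18 orange points, all to the right of 0, and the promoter regulators have none; with median scaling 7 genes of each of these lists fell in A2780.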

How the data were processed

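Total RNA from 8 samples was measured on Illumina BeadChips. The signal table deposited by the authors holds linear probe intensity, exported with BeadStudio per the submitters' processing notes and not normalized between arrays; a second deposited table holds the authors' log2 values, whose columns share a median of 7.00 and differ by at most 0.025 from quantile-normalized log2 signals, a step the labels do not describe. The genome build behind the probes is not given in the sources used here. Signals were background-corrected (normexp, offset 50) and quantile-normalized with limma 3.58.1 in R 4.3.3. Probes were named from the platform annotation: 30113 had 1 symbol, 8 had several and 17110 were not listed. Probes with a mean above the 40th percentile (6.16 on the log2 scale) were kept, and each gene was represented by its brightest probe on average, leaving 14189 genes.

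A linear model of 4 groups over all 8 arrays was moderated by empirical Bayes, with 4 residual degrees of freedom and a prior of 9.39. Tests were two-sided, with Benjamini-Hochberg adjustment over all genes and a threshold of 0.05. The background level of an array was the 99th percentile of a normal curve centred on its commonest log2 signal. Precision is limited by the number of arrays. Equally numbered samples were not treated as pairs in the main fit, and the labels do not say whether they were paired. Their deviations from the group means correlated at -0.25 in SKOV3 and 0.07 in A2780. The fit was tested on simulated data with known answers.

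The members and lists were chosen with earlier results of these data known. Genes named from a list are up to 4 with the largest change among those past the test whose groups did not overlap, passing over clone and LOC names; those nearest FOS and JUN are the 5 with the smallest root-mean-square profile difference. The fit was repeated on the authors' log2 values and on signals floored at 16 with no background correction. Between arrays, median scaling and no normalization were tried, and for dim probes no filter and the 60th percentile. Other fits used a prior that was trended and robust, the replicate number as a block, weighted arrays, the arrays of 1 comparison alone, every kept probe, or all arrays but 1.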

Additional observations from a re-analysis of the deposited data

How the results depend on the processing

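FOS, FOSB and JUN rose in both lines under all 19 alternatives. Their changes ran from 4.84 to 5.44 for FOS, 2.60 to 2.88 for FOSB and 3.06 to 3.40 for JUN in SKOV3, and from 4.84 to 5.48, 3.04 to 3.76 and 3.55 to 4.43 in A2780. The control arrays of FOS in both lines, and of JUN in A2780, lie near or below background, which limits these sizes. No member has another probe, so that alternative gave no value, and every kept probe was tested instead.

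Counts of genes called moved more. In SKOV3 the 451 became 265 with median scaling and 192 with no between-array normalization, and 175 to 608 without 1 array; in A2780 the 641 became 4584, 5311 and 239 to 1155, and 990 with every kept probe tested. For the difference between responses the 14 became 8 with no between-array normalization, 27 with no filter, 27 with array weights and 3 to 132 without 1 array. Between the lines the counts without 1 array were 2569 to 4495 at 37 °C, and 2214 to 3724 at 46 °C, where no between-array normalization gave 1919. Members called for the difference were 1 (JUN) with no filter and with array weights and 0 to 1 without 1 array; at 37 °C they were 2 with median scaling, 1 with no between-array normalization and 3 to 5 without 1 array; at 46 °C they were 1 to 2 without 1 array. Members called with heat were 3 to 4 of 7 over all alternatives in each line, the fourth being JUNB. The cause of these moves was not tested; leaving out an array also leaves fewer samples.

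The replicate block took the adjusted p of JUNB in SKOV3 to 0.0676 and that of FOSL1 between the lines at 37 °C to 0.0279. The labels do not say whether equal numbers mark a pair. Crossing the SKOV3 hyperthermia numbers, a block chosen after seeing the data, gave 577 calls in SKOV3, 870 in A2780 and 26 for the difference, with 4, 3 and 0 members.

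Signs changed only for differences that had not passed. In A2780, median scaling gave -0.28 for FOSL2, -0.43 for JUNB and -0.13 for JUND, and no between-array normalization gave -0.39, -0.53 and -0.24, with -0.022 for FOSL1. Without 1 array, A2780 values ran from -0.031 to 0.050 for FOSL2 (below 0 without A2780 control 2 or hyperthermia 1), -0.10 to 0.17 for JUNB (hyperthermia 1) and -0.16 to 0.19 for JUND (control 2 or hyperthermia 1), and SKOV3 values of FOSL1 from -0.54 to 0.20 (above 0 without SKOV3 hyperthermia 1). For the difference, FOS was at 0.008 with the authors' log2 values, 0.016 with the floor of 16, 0.023 with median scaling and 0.14 with no between-array normalization, FOSL2 at 0.082 with median scaling and 0.20 with no between-array normalization, and JUND at 0.0073 with the second of these. Without 1 array the difference ran from -0.13 to 0.024 for FOS (above 0 without A2780 control 2) and -0.73 to 0.0083 for FOSL1 (SKOV3 hyperthermia 1). Between the lines at 37 °C, JUND was at -0.21 with median scaling and -0.33 with no between-array normalization, which put FOS at -0.065. At 46 °C without 1 array, JUNB ran from -0.20 to 0.076 (above 0 without A2780 hyperthermia 1 or SKOV3 hyperthermia 2) and FOSL1 from -0.21 to 0.54 (below 0 without SKOV3 hyperthermia 2).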

Other observations

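IER3, an immediate early gene that lies outside the rule for named genes and was chosen after its values were seen, was at 0.21 ± 0.13 in SKOV3 (limma adjusted p = 0.498) and rose by 1.90 ± 0.13 in A2780, a difference between responses of -1.68 ± 0.19 (adjusted p = 0.00211). That call was lost in 2 of 18 alternatives. At 37 °C its mean was 8.47 in SKOV3 and 8.68 in A2780, above background on every array.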
